A study of Mus musculus with 9 samples.

Results

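The 10 genes described here, Tnf, Il6, Osm, Il12b, Il10, Tgfb1, Csf1, Il34, Il15 and Il33, encode pro- and anti-inflammatory cytokines other than interleukin-1 itself, with Il33 the one gene of the interleukin-1 family on the list. They were taken by name from 55450 genes in the gene counts of bulk RNA sequencing of mouse substantia nigra, the midbrain region that holds the dopaminergic neurons lost in Parkinson's disease. All 10 were found in the GENCODE M21 annotation of GRCm38, and all 10 passed a filter of at least 3 counts in at least 3 of the 9 libraries, as did 27142 genes in all. The 9 libraries form 3 groups of 3. CTR, labelled GFP (control), came from CX3CR1-CreERT2 mice injected in the substantia nigra with a Cre-inducible lentivirus for destabilized GFP. CX3, labelled CX3-Cre, came from the same driver line given a Synuclein-expressing vector, so that Cre acts in microglia and other Cx3cr1-expressing myeloid cells after tamoxifen. DAT, labelled DAT-Cre, received the same Synuclein-expressing vector, with Cre active in dopaminergic neurons. Male mice were injected on both sides at 8 to 9 weeks of age, and tissue was dissected 5 weeks after transduction from saline-perfused brains. All vectors used the Ef1a promoter and an inverted transgene that Cre turns into the reading direction. Tamoxifen is described for the CX3CR1-CreERT2 mice alone, so in every comparison with DAT the Cre line, the tamoxifen and, against CTR, the vector cannot be told apart. How many animals gave each library is not stated, and p-values measure the spread between these libraries, which may be technical.

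Cytokines are secreted messengers that cells of the immune system, glia and barrier tissues use to start, shape and end inflammation. Tnf signals through 2 receptors to NF-kappaB, Il6 and Osm act through receptors that share the subunit gp130, and Il12b encodes the p40 chain common to interleukins 12 and 23. Il10 and Tgfb1 mostly restrain inflammation, and Tgfb1 also maintains the resting state of microglia. Csf1 and Il34 are the alternative ligands of Csf1r, the receptor on which microglia depend for survival, while Il15 sustains NK cells and memory T cells and Il33 is an alarmin released by damaged cells, in the brain mainly by oligodendrocytes and astrocytes.

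None of the 10 genes stayed under 3 counts in every library. Il6 was under 3 counts in 3 libraries and Il10 in 2 libraries, while the other 8 genes had at least 3 counts in all. Libraries held 21592817 to 39475428 reads on genes, so that 3 counts, the floor used here, equal 0.0782 to 0.147 CPM, the unit used here for counts scaled to a common library size with edgeR's TMM factors. This floor covers counting error only. The library DAT B stood apart from its group. Its squared count differences from DAT A and DAT C were 16.47 and 12.06 times those of random sampling, against 2.25 between DAT A and DAT C and 1.46 to 6.28 within the other groups. Results on DAT for the 10 genes and the pathway genes named below are therefore also given without it wherever a call changes. Calls of the cell type markers were not checked without it. Levels of different genes were compared per kilobase of exon. In CTR, Il33 stood at 103 CPM per kb, followed by Il34 at 11.1, Csf1 at 9.88, Tgfb1 at 2.18, Il15 at 1.41 and Tnf at 0.861 CPM per kb. Osm at 0.569 and Il12b at 0.553 CPM per kb lay closer to each other than the spread between libraries of Osm. Il10 at 0.247 and Il6 at 0.0504 CPM per kb were the lowest.

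The 250 bases before the start site are shown for Tnf and Il12b, both lower in DAT than in CTR, for Tgfb1, higher in CX3, and for Csf1, whose level passed no test. Sequences come from the RefSeq promoter table on GRCm38.p6, which matched 6 of the 10 genes. They read 5′ to 3′ on the strand of the gene, and capitals mark matches on either strand to 4 motifs. The kappaB motif, the site of the NF-kappaB factors, was searched as GGANNTTCC. The AP-1 motif, the site of Fos and Jun proteins, was searched as TGANTCA. The other 2 were the TATA box of core promoters, searched as TATAAA, and the GC box of Sp1 and related factors, searched as GGGCGG. The windows lie at chr17:35202008-35202257 (minus strand) for Tnf, chr11:44399813-44400062 (plus strand) for Il12b, chr7:25686752-25687001 (plus strand) for Tgfb1 and chr3:107760470-107760719 (minus strand) for Csf1.
Tnf: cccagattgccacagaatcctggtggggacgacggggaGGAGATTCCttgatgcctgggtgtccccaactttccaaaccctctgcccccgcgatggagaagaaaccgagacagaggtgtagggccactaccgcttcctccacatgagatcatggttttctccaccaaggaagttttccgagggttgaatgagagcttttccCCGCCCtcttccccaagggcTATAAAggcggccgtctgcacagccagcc
Il12b: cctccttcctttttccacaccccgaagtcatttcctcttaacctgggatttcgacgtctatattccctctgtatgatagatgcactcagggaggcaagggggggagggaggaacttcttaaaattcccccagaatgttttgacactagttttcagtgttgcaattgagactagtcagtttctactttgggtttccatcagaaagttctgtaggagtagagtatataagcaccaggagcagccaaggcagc
Tgfb1: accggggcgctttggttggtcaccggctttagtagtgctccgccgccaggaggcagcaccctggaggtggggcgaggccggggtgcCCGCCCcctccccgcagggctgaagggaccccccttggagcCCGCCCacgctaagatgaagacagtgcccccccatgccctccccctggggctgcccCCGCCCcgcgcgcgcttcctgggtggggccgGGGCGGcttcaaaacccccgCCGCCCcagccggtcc
Csf1: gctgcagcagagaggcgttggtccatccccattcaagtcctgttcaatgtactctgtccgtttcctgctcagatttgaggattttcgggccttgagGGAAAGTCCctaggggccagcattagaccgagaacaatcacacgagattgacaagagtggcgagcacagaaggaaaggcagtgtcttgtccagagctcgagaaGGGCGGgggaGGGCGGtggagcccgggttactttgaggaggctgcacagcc
The Tnf window held a TATA box 29 bases, a GC box 49 bases and a kappaB match 212 bases before the start. The Il12b window held no exact match to the 4 motifs. Other forms of these sites were not searched, so this does not show that Il12b lacks a TATA box or an NF-kappaB site. The Tgfb1 window held 5 GC boxes, and the Csf1 window held 2 GC boxes and a kappaB match 154 bases before the start. Of all 32851 promoter windows of this length, 3.6% held the kappaB motif, 6.7% the AP-1 motif, 12.4% the TATA box and 32.7% the GC box. GC content was 57.6% for Tnf, 46.0% for Il12b, 75.2% for Tgfb1 and 56.4% for Csf1, against a median of 52.4% over all windows. These are descriptions of letters and not of bound factors.

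Of the 4 pro-inflammatory genes, Tnf, Osm and Il12b were lower in DAT than in both other groups, and no member of this set passed the test between CX3 and CTR. Tnf (ENSMUSG00000024401.14, chromosome 17 from 35199381 to 35202007) had 42, 54 and 42 counts in CTR, 59, 54 and 84 in CX3, and 6, 7 and 4 in DAT. Every DAT library lay far under every other library, and the 3 CX3 libraries lay just over the CTR libraries without overlap. In CPM, the level was 1.41 ± 0.0553 in CTR, 1.77 ± 0.362 in CX3 and 0.229 ± 0.0994 in DAT (SD, n = 3 libraries each). Tnf fell 6.44-fold from CTR to DAT, a log2 fold change of -2.69 ± 0.31 (SE) with an adjusted p of 1.54e-06. It was 8.08-fold higher in CX3 than in DAT (adjusted p 2.29e-07). Against CTR, the CX3 difference of 0.33 ± 0.20 on the log2 scale missed the threshold (adjusted p 0.263), and its 95% interval ran from -0.06 to 0.71.

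Osm (ENSMUSG00000058755.3, chromosome 11 from 4236420 to 4241026), a gp130 cytokine of activated myeloid cells and T cells, had 31, 48 and 47 counts in CTR, 36, 35 and 30 in CX3, and 20, 6 and 10 in DAT. The DAT libraries were the lowest, and the CX3 libraries overlapped the lowest CTR library. The level went from 1.29 ± 0.272 CPM in CTR to 0.916 ± 0.120 in CX3 and 0.431 ± 0.133 in DAT. Osm fell in DAT by 1.51 ± 0.28 on the log2 scale (adjusted p 0.00025) and was 2.01-fold higher in CX3 than in DAT (adjusted p 0.00866). Without DAT B, the latter difference was 0.84 on the log2 scale (adjusted p 0.0291), under 2-fold. With any 1 library left out, it ranged from 0.84 to 1.30, on both sides of the 2-fold mark. The CX3 value against CTR was -0.50 ± 0.23 (adjusted p 0.136).

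Il12b (ENSMUSG00000004296.14, chromosome 11 from 44400063 to 44414033) had 37, 39 and 30 counts in CTR, 45, 36 and 59 in CX3, and 17, 9 and 10 in DAT. All DAT libraries were lower than all others, and CTR and CX3 overlapped. The level was 1.09 ± 0.110 CPM in CTR, 1.26 ± 0.254 in CX3 and 0.452 ± 0.0223 in DAT. Il12b fell 2.38-fold in DAT against CTR (log2 fold change -1.25 ± 0.27, adjusted p 0.000797) and was 2.75-fold higher in CX3 than in DAT (adjusted p 0.000133). Il12b in CX3 against CTR gave 0.21 ± 0.21 (adjusted p 0.517).

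Il6 (ENSMUSG00000025746.11, chromosome 5 from 30013114 to 30019981) was close to the floor, with 2, 5 and 5 counts in CTR, 8, 5 and 6 in CX3, and 4, 1 and 2 in DAT. Its CX3 libraries lay over its DAT libraries, and CTR overlapped both. No difference was detectable at this depth, with log2 fold changes of 0.47 ± 0.54 for CX3 against CTR (adjusted p 0.593), -0.47 ± 0.65 for DAT against CTR (adjusted p 0.579) and 0.94 ± 0.61 for CX3 against DAT (adjusted p 0.225).

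**Figure D1:**
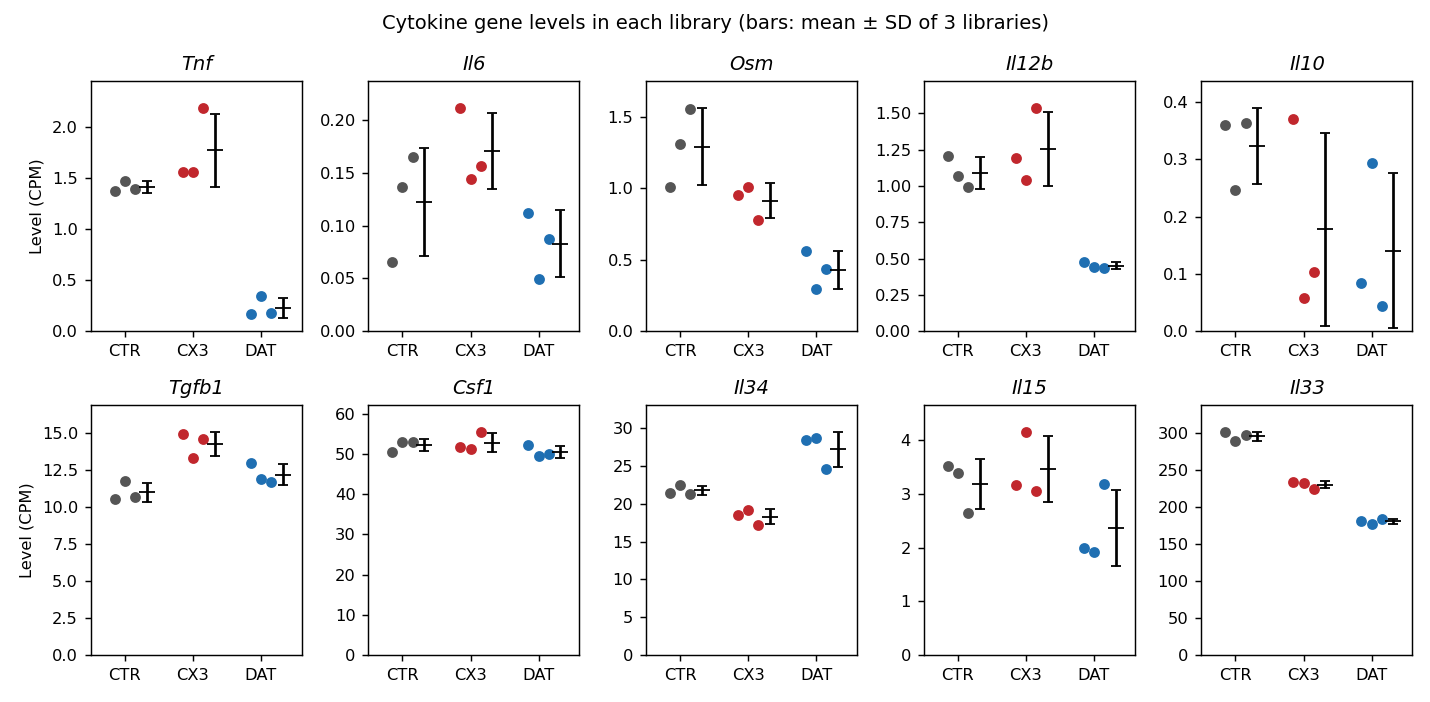
Level of each cytokine gene in CPM (vertical axes from 0, each with its own scale) in the 3 libraries of CTR, CX3 and DAT, with points for libraries and bars for the mean ± SD. The DAT libraries of Tnf, Osm and Il12b lie under all other libraries, Il33 steps down from CTR to CX3 to DAT, and Csf1 stays between 49.5 and 55.6 CPM.

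Between the anti-inflammatory genes, Tgfb1 was higher in CX3 and Il10 was too sparse to call. Tgfb1 (ENSMUSG00000002603.15, chromosome 7 from 25687002 to 25705077) stood at 10.6, 11.8 and 10.7 CPM in CTR, 14.9, 13.3 and 14.6 in CX3, and 13.0, 11.9 and 11.7 in DAT, from 243 to 564 counts a library. All CX3 libraries were over all others, and the lowest DAT library overlapped the highest CTR library. Tgfb1 rose 1.3-fold in CX3 against CTR, a log2 fold change of 0.37 ± 0.08 with an adjusted p of 0.00199. The call was lost in counts of the first strand alone (0.29, adjusted p 0.0534). Tgfb1 was also higher in CX3 than in DAT by 0.22 on the log2 scale (adjusted p 0.0293), but this call was lost under DESeq2 (adjusted p 0.0555), with the other group left out (adjusted p 0.0683), with first-strand counts (adjusted p 0.162), and without CX3 A, CX3 C or DAT C (adjusted p 0.0953, 0.0827 and 0.1). In DAT against CTR the value was 0.15 (adjusted p 0.13).

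Il10 (ENSMUSG00000016529.5, chromosome 1 from 131019845 to 131024974) had 11, 9 and 11 counts in CTR, 14, 2 and 4 in CX3, and 3, 6 and 1 in DAT. The CTR libraries were alike, while CX3 A, with 14 counts, exceeded every other library. Of the strand-specific counts in CX3 A, 13 were on the second strand and 1 on the first. Il10 passed no test, with log2 fold changes of -0.82 ± 0.59 in CX3 (adjusted p 0.358) and -1.29 ± 0.68 in DAT (adjusted p 0.126) against CTR. Without DAT B, Il10 was called lower in DAT (-2.17, adjusted p 0.0198), and with first-strand counts it was called lower in CX3 (-2.35, adjusted p 0.0438). Between CX3 and DAT the value was 0.47 ± 0.73 (adjusted p 0.631), and -0.62 without CX3 A.

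Of the ligands of Csf1r, Il34 changed in each comparison and Csf1 passed no test. Csf1 (ENSMUSG00000014599.10, chromosome 3 from 107741048 to 107760469) had 50.5, 53.0 and 53.0 CPM in CTR, 51.6, 51.3 and 55.6 in CX3, and 52.2, 49.5 and 49.9 in DAT, from 1008 to 2133 counts a library. The 3 groups overlapped. Its log2 fold change was 0.02 (95% interval -0.09 to 0.12) in CX3 and -0.05 (95% interval -0.15 to 0.06) in DAT against CTR, with adjusted p of 0.851 and 0.514, and 0.06 between CX3 and DAT (adjusted p 0.359). Scaled to library size alone, without TMM, Csf1 was called lower in DAT than in CTR (-0.20, adjusted p 0.00364) and higher in CX3 than in DAT (0.24, adjusted p 0.000659). First-strand counts also called it lower in DAT (-0.16, adjusted p 0.0398).

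Il34 (ENSMUSG00000031750.15, chromosome 8 from 110741829 to 110805924), the ligand made mainly by neurons in the brain, had 21.5, 22.5 and 21.3 CPM in CTR, 18.5, 19.1 and 17.3 in CX3, and 28.4, 28.7 and 24.5 in DAT. The groups did not overlap, with CX3 the lowest and DAT the highest. Il34 fell in CX3 by 0.25 ± 0.07 on the log2 scale (adjusted p 0.0142) and rose in DAT by 0.32 ± 0.07 (adjusted p 0.00094). It was lower in CX3 than in DAT by a log2 fold change of -0.58 (adjusted p 2.68e-06). The fall in CX3 was no longer called without CTR B (-0.23, adjusted p 0.0696), without CX3 C (-0.21, adjusted p 0.0745) or with first-strand counts (-0.23, adjusted p 0.0518), and the rise in DAT was not called with first-strand counts (0.18, adjusted p 0.0844). Of its exon bases, 5.0% are shared with antisense genes, Gm15894 at 0.172, 0.287 and 0.301 CPM and Gm15895 at 0.011, 0.154 and 0.0519 CPM in CTR, CX3 and DAT. Reads of overlapping bases cannot be assigned between strands here and are left out of the counts of both strands as ambiguous. In CTR A, Il34 had 658 counts of both strands, beside 365 on the first and 339 on the second. Counts of 1 strand thus hold some reads that the main counts of Il34 leave out. No other gene of the 10 shares exon bases.

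Il15 (ENSMUSG00000031712.10, chromosome 8 from 82331632 to 82403222) had 3.53, 3.39 and 2.65 CPM in CTR, 3.18, 4.17 and 3.05 in CX3, and 1.99, 1.91 and 3.18 in DAT. DAT A and DAT B lay under all other libraries, while DAT C lay among them. Il15 was higher in CX3 than in DAT by 0.56 on the log2 scale (adjusted p 0.0243), a call lost without CX3 B (adjusted p 0.122), without DAT A (adjusted p 0.142) and with first-strand counts (adjusted p 0.0559). Its value in DAT against CTR, -0.45 ± 0.20, missed the threshold (adjusted p 0.0693) and passed it in 5 of 18 alternatives, among them without DAT C (-0.70, adjusted p 0.00967) and without CTR C (-0.56, adjusted p 0.0426). In CX3 against CTR the value was 0.11 (adjusted p 0.708).

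Il33 (ENSMUSG00000024810.16, chromosome 19 from 29925114 to 29960718) was the most abundant of the 10 in every group, with 3617 to 10576 counts a library. It stood at 301, 289 and 298 CPM in CTR, 234, 233 and 225 in CX3, and 181, 178 and 184 in DAT. The 3 groups were separate, each with an SD of at most 6.33 CPM. Il33 fell in CX3 by 0.36 ± 0.04 (adjusted p 9.99e-06) and in DAT by 0.71 ± 0.04 (adjusted p 5.74e-10) on the log2 scale, and was higher in CX3 than in DAT by 0.35 (adjusted p 3.4e-06). All 3 calls held in all 18 alternatives.

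**Figure D2:**
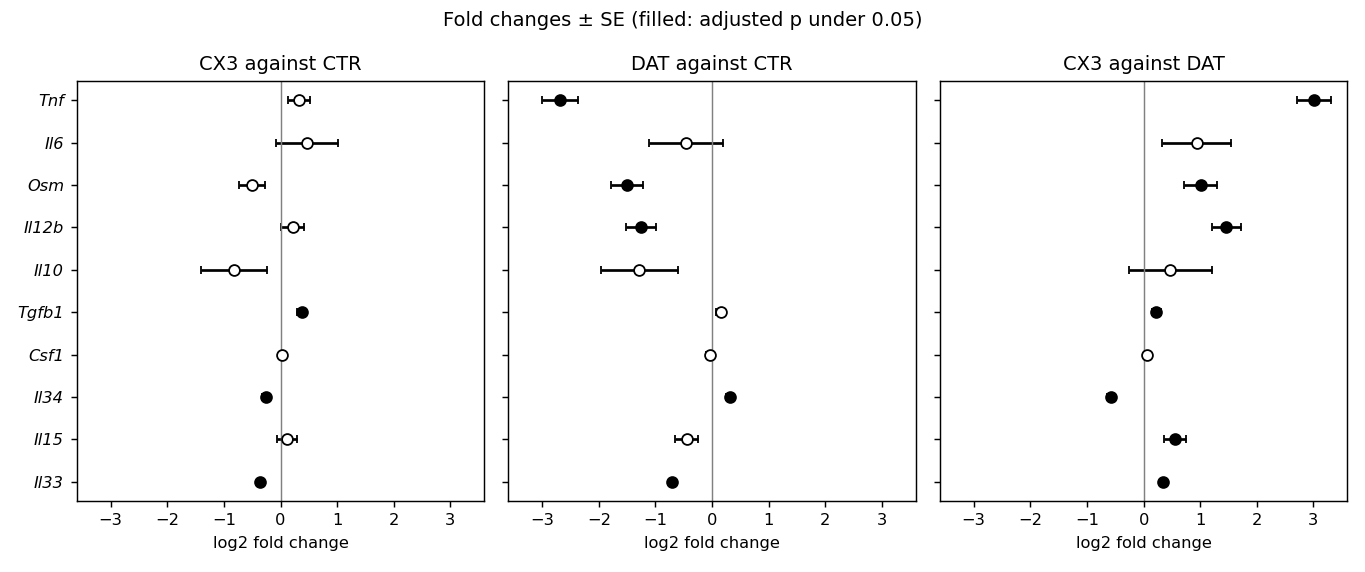
log2 fold change ± SE (horizontal axes) of the 10 genes in CX3 against CTR, DAT against CTR and CX3 against DAT, filled where the adjusted p was under 0.05. Tnf has the largest value in the panels with DAT, at -2.69 and 3.01, while in CX3 against CTR the filled points are Tgfb1, Il34 and Il33.

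Counted over the 10 genes, 1 was higher and 2 were lower in CX3 than in CTR, where 11.7% of all genes tested were called higher and 12.4% lower. Without CTR B or without CX3 C, 1 was lower. In that comparison 0 of the 10 were called at least 2-fold changed by edgeR, as by DESeq2 and at an unadjusted p under 0.05 in edgeR, against 1.23% of all genes 2-fold higher and 3.19% 2-fold lower. In DAT against CTR, 1 of the 10 was higher and 4 were lower, beside 24.8% and 25.4% of all genes, and 3 of the 4 were at least 2-fold lower, beside 3.29% of all genes 2-fold higher and 13.8% 2-fold lower. Without DAT B, 5 were lower and 4 of these at least 2-fold, the added gene being Il10. In CX3 against DAT, 6 were higher and 1 lower, beside 23.7% and 23.4%, and 3 were at least 2-fold higher, beside 10.9% 2-fold higher and 3.52% 2-fold lower. Without DAT B, CX3 A, CX3 B or DAT C, 2 were at least 2-fold higher, as with second-strand counts and with the other group left out. The median log2 fold change of the 10 was 0.06, -0.59 and 0.52 in these comparisons, against -0.01, -0.10 and 0.09 over all genes. The comparisons share libraries, and each gives its own values for the same genes.

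The receptors of these cytokines were followed from a list of 20 genes. In CX3 against CTR, 3 rose and 7 fell (median -0.21), beside 11.7% and 12.4% of all genes tested. In DAT against CTR, 1 rose and 12 fell (median -0.63), beside 24.8% and 25.4% of all genes. The number that rose was 3 without DAT B and 2 without CX3 A. In CX3 against DAT, 12 were higher and 5 lower, beside 23.7% and 23.4% of all genes. Il1rl1, the receptor for Il33, went from 0.656 ± 0.202 CPM in CTR to 2.11 ± 0.0283 in CX3 (3.24-fold higher, adjusted p 3.28e-05) and 0.708 ± 0.177 in DAT. It rose in CX3, where Il33 itself fell. Il12rb1, a receptor chain for interleukins 12 and 23, rose from 13.4 ± 0.844 CPM in CTR to 24.4 ± 0.963 in CX3 (adjusted p 4.74e-07) and fell to 3.65 ± 0.624 in DAT (adjusted p 2.5e-10). Osmr, the specific receptor chain for Osm, fell from 21.6 ± 0.932 CPM to 12.4 ± 0.685 in CX3 (adjusted p 1.85e-07) and 7.53 ± 0.179 in DAT (adjusted p 4.5e-11). Il6st, which encodes gp130, fell from 209.8 ± 2.08 to 142 ± 5.84 CPM in CX3 (adjusted p 1.86e-05) and stood at 220 ± 28.3 CPM in DAT, a value called higher than CTR only without DAT B among the 18 alternatives (0.17, adjusted p 0.000384). Csf1r fell from 199 ± 0.653 CPM to 135 ± 3.39 in CX3 (adjusted p 2.2e-07) and 157 ± 7.82 in DAT (adjusted p 1.46e-05). Its difference between CX3 and DAT (-0.22, adjusted p 0.0011) was lost when scaled to library size alone (adjusted p 0.475).

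Of 25 partner subunits and related ligands, 20 could be tested. In CX3 against CTR, 3 rose and 2 fell, or 5 and 2 without DAT B, beside 11.7% and 12.4% of all genes. In DAT against CTR, 1 rose and 11 fell, beside 24.8% and 25.4% of all genes. In CX3 against DAT, 10 were higher and 1 lower, beside 23.7% and 23.4%. Clcf1, another gp130 cytokine, rose 1.58-fold in CX3 (2.21 ± 0.252 to 3.50 ± 0.274 CPM, adjusted p 0.00374) and fell to 1.17 ± 0.254 CPM in DAT (adjusted p 0.000619). Tnfsf10, the death ligand TRAIL, rose from 13.8 ± 0.317 to 21.5 ± 0.891 CPM in CX3 (adjusted p 6.89e-06) and fell to 8.48 ± 1.00 in DAT (adjusted p 2.13e-06). Il16, a chemoattractant for CD4 cells, fell in both, from 6.47 ± 0.516 CPM to 4.27 ± 0.466 in CX3 (adjusted p 0.000967) and 2.43 ± 0.192 in DAT (adjusted p 1.12e-07). Lif, the namesake of its gp130 subfamily, was at 1.15 ± 0.0872, 1.63 ± 0.134 and 1.26 ± 0.532 CPM in CTR, CX3 and DAT and was not called (adjusted p 0.131 in CX3 and 0.825 in DAT against CTR, and 0.159 between CX3 and DAT). Without DAT B, Lif was called higher in CX3 than in DAT (0.74, adjusted p 0.0091).

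Among 9 activators, carriers and processing enzymes, which release or trim latent Tgfb1 and other cytokines, 1 rose and 3 fell in CX3 against CTR, while 6 rose and 3 fell in DAT against CTR. Without DAT B, 5 fell in CX3 against CTR and 2 fell in DAT against CTR, and without CX3 A 2 rose in CX3. In CX3 against DAT, 2 were higher and 7 lower. Of all genes, 11.7% were called higher and 12.4% lower in CX3 against CTR. These shares were 24.8% and 25.4% in DAT against CTR and 23.7% and 23.4% in CX3 against DAT. Nrros, the microglial carrier that holds latent Tgfb1, fell from 11.4 ± 0.691 CPM to 8.48 ± 0.785 in CX3 (adjusted p 0.00304) and 5.66 ± 0.597 in DAT (adjusted p 2.94e-07). Itgb8, an integrin chain that activates Tgfb1, fell from 167 ± 2.32 to 128 ± 7.08 CPM in CX3 (adjusted p 7.42e-05). Its level of 151 ± 9.03 CPM in DAT gave an adjusted p of 0.0444 against CTR, a call lost in 9 of 18 alternatives. Among these 9 were the fit without DAT B (adjusted p 0.073) and the fit with a replicate block (adjusted p 0.0643). Furin, the protease that cuts the Tgfb1 precursor, rose from 23.4 ± 2.0 to 29.4 ± 0.997 CPM in CX3 (adjusted p 0.00171) and 39.3 ± 1.71 in DAT (adjusted p 5.9e-08). Ltbp1, the matrix carrier of latent Tgfb1, rose from 5.71 ± 0.457 to 8.66 ± 0.968 CPM in DAT (adjusted p 0.000153) and stood at 4.68 ± 0.330 in CX3 (adjusted p 0.0711, and 0.0335 without DAT B).

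Of 15 intracellular inhibitors and targets, 4 rose and 4 fell in CX3 against CTR, beside 11.7% and 12.4% of all genes. In DAT against CTR 2 rose and 9 fell, beside 24.8% and 25.4%, and 8 were higher and 2 lower in CX3 than in DAT, beside 23.7% and 23.4%. The 4 that rose in CX3 were 2 without CTR A, CTR B, CTR C or CX3 B and under DESeq2, and 1 with first-strand counts. Socs1, a feedback inhibitor of JAK signalling, rose 2.59-fold in CX3, from 3.95 ± 0.294 to 10.3 ± 0.502 CPM (adjusted p 7.46e-08). In DAT, Socs1 had 3.22 ± 0.553 CPM (adjusted p 0.0579, and 0.0113 without DAT B). Nfkbia, an NF-kappaB inhibitor that NF-kappaB itself induces, fell from 75.8 ± 3.62 CPM to 40.1 ± 3.61 in CX3 (adjusted p 5.08e-08) and 37.6 ± 3.15 in DAT (adjusted p 3.56e-09). Between CX3 and DAT, Nfkbia differed by 0.10 on the log2 scale (adjusted p 0.295), and was called higher in CX3 without DAT B (0.16, adjusted p 0.0403). Lcn2, an iron-binding acute-phase protein of reactive astrocytes and neutrophils, fell 7.36-fold in CX3 (20.3 ± 0.776 to 2.76 ± 0.136 CPM, adjusted p 2.08e-13) and 14.1-fold in DAT (1.45 ± 0.126 CPM, adjusted p 2.87e-14).

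**Figure D3:**
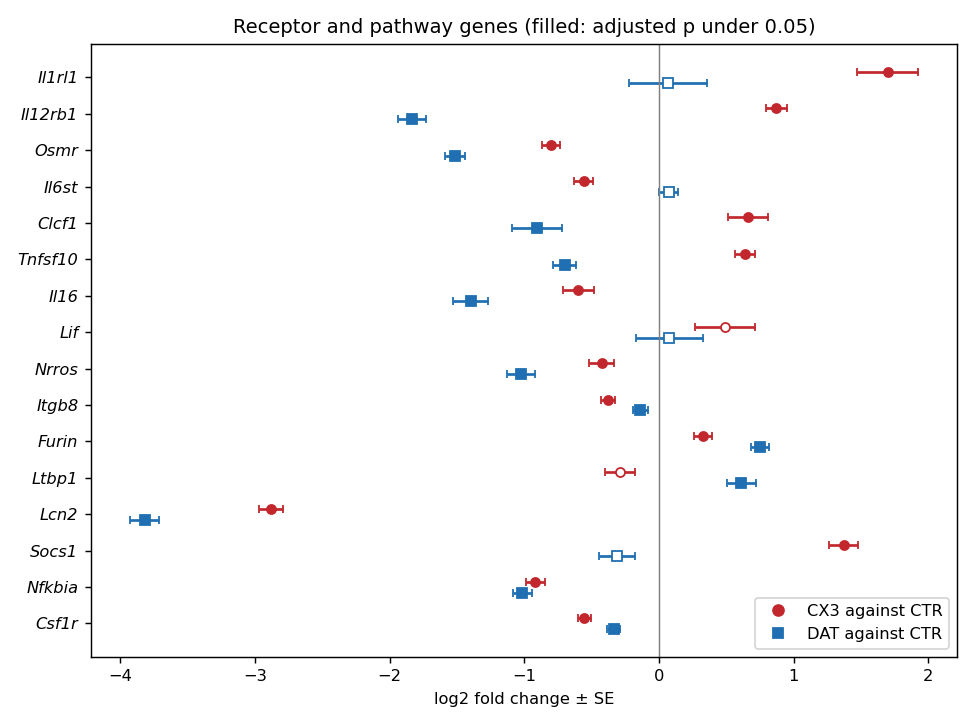
log2 fold change ± SE (horizontal axis) of the receptor and pathway genes described above in CX3 against CTR (circles) and DAT against CTR (squares), filled where the adjusted p was under 0.05. Il12rb1, Clcf1 and Tnfsf10 lie on opposite sides of 0 in the 2 comparisons with both points filled. Socs1, Ltbp1 and Il6st do so with an open point. Lcn2 is the lowest in both, at -2.88 and -3.82.

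Cell type markers also differed between the groups. The counts of markers below stand beside 11.7% of all genes called higher and 12.4% lower in CX3 against CTR. In DAT against CTR these shares were 24.8% and 25.4%. In bulk tissue, fewer cells of a type and less RNA per cell cannot be told apart. The summed level of 9 microglia and macrophage markers ranged from 1114 to 1133 CPM in CTR, 741 to 790 in CX3 and 498 to 550 in DAT, with 8 of 9 lower in CX3 and 9 of 9 lower in DAT than in CTR. The 8 T and NK cell markers summed to 51.2 to 52.6, 42.5 to 47.6 and 11.2 to 13.1 CPM, with 2 of 8 lower in CX3 and 7 of 8 lower in DAT. These lists were lowest in DAT, as were the B and plasma cell, neutrophil and monocyte, oligodendrocyte and dopaminergic lists below. Tnf, Osm, Il12b and Il33 were lowest in DAT too, and a link to any of these lists was not tested. The 5 B and plasma cell markers summed to 304 to 322, 76.1 to 81.8 and 14.7 to 17.8 CPM, with 5 lower in CX3 and 4 in DAT. The 5 neutrophil and monocyte markers summed to 43.7 to 46.0, 19.0 to 20.4 and 4.88 to 5.56 CPM, most of it Ly6c2 at a mean of 39.0, 8.77 and 2.39 CPM. In CX3, 3 of the 5 were lower than in CTR, as Lcn2 was, while Ccr2 (2.59-fold, adjusted p 1.67e-07) and Retnlg (2.61-fold, adjusted p 0.0375) were higher, and in DAT 4 of 5 were lower. The 6 mast cell markers summed to 19.01 to 22.01, 17.33 to 20.02 and 36.07 to 40.02 CPM, most of it Kit, which fell 1.43-fold in CX3 (adjusted p 0.000108) and rose 1.86-fold in DAT (adjusted p 2.38e-08). The mast cell protease genes Cpa3, Mcpt4 and Tpsb2 rose 3.03-fold, 3.53-fold and 3.23-fold in CX3 (adjusted p 0.000259, 6.26e-05 and 0.000114), beside the rise of Il1rl1. The sparse Tpsab1 and Ms4a2 were not called there. Mcpt4 and Tpsb2 also rose in DAT, where Il1rl1 was not called (adjusted p 0.867). Astrocyte markers, 5 in all, summed to 4129 to 4196, 2419 to 2477 and 2343 to 2435 CPM, and 5 oligodendrocyte markers to 17060 to 17170, 18240 to 19090 and 13060 to 13760 CPM, both beside Il33. Of the astrocyte markers 4 were lower in CX3 and 3 in DAT than in CTR, and of the oligodendrocyte markers 2 were higher and 1 lower in CX3 and 2 higher and 2 lower in DAT. Neuronal markers summed to 2404 to 2434, 2867 to 2888 and 3562 to 3783 CPM. Of these markers, 4 of 4 were higher in DAT and 3 of 4 higher in CX3. Il34 rose in DAT but fell in CX3. Sums of the mast cell, choroid plexus, granule cell, endothelial and meningeal fibroblast lists were also higher in DAT than in CTR. The fibroblast sum was lowest in CX3 and highest in DAT, as Il34 was. A link of Il34 to any list was not tested. The 4 dopaminergic markers summed to 393 to 396, 571 to 587 and 329 to 342 CPM, with 4 higher in CX3, and 1 higher and 3 lower in DAT.

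Markers of other tissues, brain regions, vessels and blood differed as well. The 6 choroid plexus markers summed to 45.9 to 46.7 CPM in CTR, 1477 to 1617 in CX3 and 876 to 1023 in DAT, and the 4 pituitary markers to 57.03 to 59.76, 2.97 to 3.1 and 15.04 to 20.46 CPM. Of these, 5 of 6 were higher and 3 of 4 lower than in CTR in both CX3 and DAT. Cerebellar granule cell markers summed to 2.97 to 3.14, 4.06 to 4.15 and 14.3 to 19.5 CPM, with 1 of 4 higher in CX3 and 2 of 4 in DAT. Most of the DAT sum was Fat2, at a mean of 0.566 CPM in CTR and 14.2 CPM in DAT, while Neurod1 was at 1.81 and 1.60 CPM (adjusted p 0.499). Endothelial markers summed to 131 to 132, 183 to 196 and 245 to 265, meningeal fibroblast markers to 136 to 138, 112 to 120 and 228 to 234, and red blood cell markers to 205 to 226, 83.8 to 96.0 and 168 to 227 CPM. In DAT, 4 of 4 endothelial and 2 of 4 fibroblast markers were higher and 1 of 3 red blood cell markers was lower than in CTR, and in CX3 2 of 4 endothelial markers were higher, and 2 of 4 fibroblast and 3 of 3 red blood cell markers lower. Every marker passed the filter on low counts. The pituitary marker Prl was at 0 counts in all DAT libraries, and no other marker was at 0 throughout a group. The part of these differences in the results on the 10 genes was not tested.

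**Figure D4:**
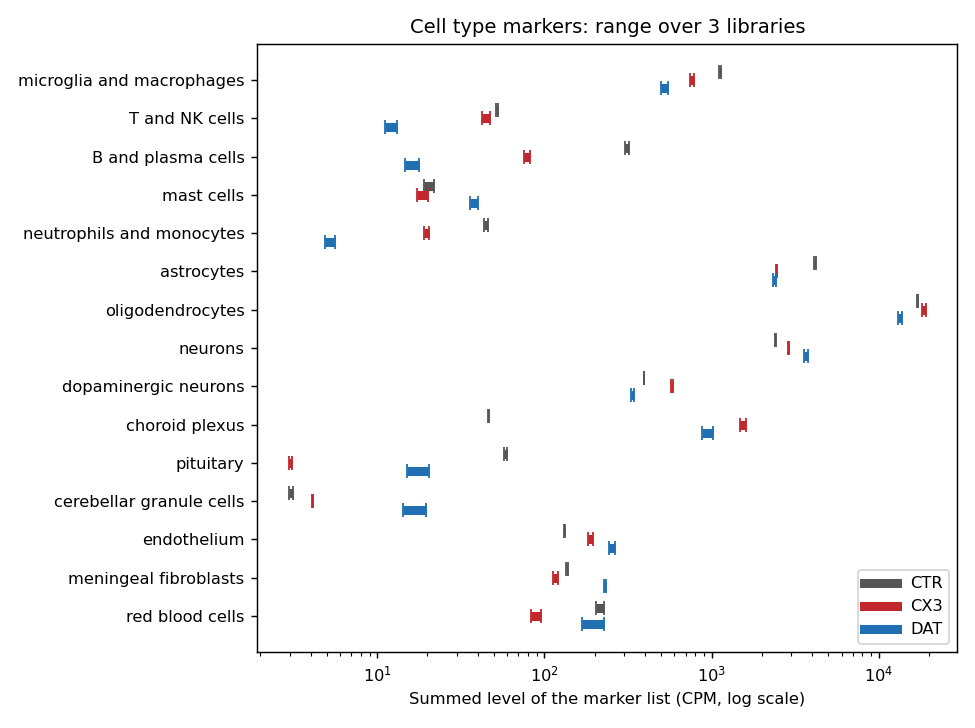
Summed CPM of each cell type marker list (horizontal axis, log scale), drawn as the range over the 3 libraries of CTR, CX3 and DAT. Microglia, T and NK, B and plasma, and neutrophil and monocyte markers are lowest in DAT, while choroid plexus markers reach 1617 CPM in CX3 against at most 46.7 CPM in CTR.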

How the data were processed

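The 9 libraries, 3 a group, were made from RNA of nigral tissue. Per the labels and methods, the authors prepared libraries with the TruSeq Stranded mRNA kit, trimmed reads with Trimmomatic, aligned them to mm10 with STAR and used featureCounts and DESeq2. The authors deposited raw read counts per gene without normalization, in the layout of STAR's gene counts, with 1 column for reads of either strand and 1 for each strand. The second strand held 49.8% to 49.9% of strand-specific counts, so counts of both strands were used. Reads not on a gene (unmapped, multimapping, in no gene or ambiguous) were 30.5% to 35.9% and were left out of library sizes.

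Counts were tested with the quasi-likelihood test of edgeR 4.0.16 (TMM, R 4.3.3) over all 9 libraries by group, with Benjamini-Hochberg adjustment over the 27142 genes with at least 3 counts in at least 3 libraries. A call is an adjusted p under 0.05. A second rule adds an absolute log2 fold change of at least 1. All tests are two-sided. SE was taken from the log2 fold change and the F statistic, and the 95% intervals from the SE. The script was tested on simulated data. Alternatives were DESeq2 1.42.0, other scalings, filters, strands and sets of libraries, and a replicate block. Replicate letters did not pair the libraries. Tables and figures used Python 3.11.15, pandas 2.3.3 and matplotlib 3.10.9.

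The 10 genes, the pathway and marker lists and the tests were chosen with earlier results of these data known. From each pathway list, Csf1r and up to 4 genes with the largest absolute change in CX3 against CTR and a mean of at least 1 CPM are named, with genes whose exons overlap those of a listed cytokine. A gene that this rule names is not reported here. The targeted transgene was not analysed here, so the labels were not checked with it.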

Additional observations from a re-analysis of the deposited data

How the results depend on the processing

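Of 18 alternatives per comparison, the falls of Tnf, Osm and Il12b in DAT against CTR and those of Il33 in DAT and CX3 stayed called in all. Their log2 fold changes in DAT ranged from -3.40 to -2.33 for Tnf, -1.80 to -1.34 for Osm, -1.52 to -1.11 for Il12b and -0.86 to -0.70 for Il33. The cause of the changes below was not tested, except that leaving out a library or counting 1 strand leaves fewer counts. In CX3 against CTR, 867 genes were at least 2-fold lower, but 472 with edgeR's filterByExpr, 479 with first-strand and 496 with second-strand counts, and 419 to 973 with 1 library left out. Genes called higher numbered 3167, and 2093 to 4380 with 1 library left out, the lowest without CTR C and the highest without DAT B. With first-strand counts 0 of the 10 cytokine genes were called higher in CX3 against CTR and 0 in DAT against CTR, and 1, Il10, was at least 2-fold lower in CX3. With 1 library left out, 1 to 2 were lower in CX3. Scaled to library size alone, 533 genes in place of 892 were at least 2-fold higher in DAT against CTR, 605 in place of 956 were at least 2-fold lower in CX3 against DAT, 9720 were higher and 4412 lower in CX3 against DAT (6443 and 6360 with TMM), and 4874 were higher and 9508 lower in DAT against CTR (6741 and 6892 with TMM). The median of all genes moved with it from -0.10 to -0.26 in DAT against CTR and from 0.09 to 0.27 in CX3 against DAT.

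Direction changed in values that were not called. Csf1 in CX3 against CTR was -0.00024 with RLE factors, -0.00023 with DESeq2, -0.001 with filterByExpr, -0.041 with first-strand counts and -0.021 to 0.038 with 1 library left out. Il15 there ranged from -0.039 to 0.196 with 1 library left out. Tgfb1 in DAT against CTR was -0.002 by library size alone. Il10 in CX3 against DAT was -0.761 with first-strand counts and -0.623 to 1.357 with 1 library left out. In DAT against CTR, Il1rl1 was -0.089 by library size alone, -0.598 with first-strand counts and -0.123 to 0.329 with 1 library left out. Il6st was -0.084 by library size alone and -0.015 with second-strand counts, and Lif -0.08, -0.03 and, with 1 library left out, -0.256 to 0.249. Of 120 mean levels recomputed, 29 moved by more than the SD between libraries, all by library size alone or with counts of 1 strand.

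Letters A, B and C name replicates in every group, but same-letter libraries did not deviate together (correlations of -0.198 to 0.054). With a replicate block, 2871 genes were higher and 3041 lower in CX3 against CTR, 6561 and 6446 in DAT against CTR, and 6052 and 6184 in CX3 against DAT. It changed no call among the 10 genes. Il6 was left out by filterByExpr and in second-strand counts, which gave it no value.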

Other observations

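Among the related ligands, Il4 stood out after its values were seen. It had 363 to 727 counts a library, or 17.2 ± 0.630, 18.2 ± 0.916 and 18.6 ± 0.878 CPM in CTR, CX3 and DAT (SD, n = 3 libraries). The annotated Il4 gene runs from 53602982 to 53618669 on chromosome 11. Where in it the reads lie was not examined, so reads of a neighbouring transcript cannot be told apart. Il13 and Il5, the other cytokine genes of type 2 responses on the list, had 0 to 2 and 0 to 6 counts. Its receptor gene Il4ra was at 14.8 ± 0.315, 14.2 ± 1.16 and 13.6 ± 1.03 CPM.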
